A study of Mus musculus with 5 samples.

Results

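The genes described here are 9 genes of the vessel lining (endothelium), Pecam1, Cdh5, Kdr, Flt1, Tek, Tie1, Ehd3, Plvap and Emcn, together with Vegfa, the main ligand that makes vessels grow. They were taken by gene symbol, and all 10 were found among the 24563 genes of the array, on 15 of its 39414 probes. All 10 were well above background on all 5 arrays, by the probe with the highest mean level of each gene, so none was lost to a filter on dim signals. Each group was 1 one-colour microarray of C57BL/6 mouse tissue. The tested tissues were those recovered 2 weeks and 4 weeks after transplantation of a kidney bud, and the kidneys they were set against came from the embryonic stage E13.5, the day of birth (P0) and 8 weeks of age. What cells made up the bud, how many animals an RNA sample came from and where the bud was placed are details the labels do not state. Vessels of the host and vessels of the bud therefore cannot be told apart.

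Endothelial cells carry receptor tyrosine kinases that read growth signals. Vegfa, made in the kidney by podocytes and tubule cells, binds Kdr, which drives endothelial growth, and Flt1, which binds the ligand tightly and signals weakly. Angiopoietins act on Tek, and Tie1 is its partner receptor. Pecam1 and Cdh5 (VE-cadherin) hold endothelial cells to each other, Plvap forms the diaphragms of fenestrated capillaries, Emcn (endomucin) is a surface sialomucin of capillaries and veins, and Ehd3, a membrane trafficking protein, is within the kidney a marker of the glomerular endothelium. In bulk tissue, fewer endothelial cells and less RNA per cell cannot be told apart.

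Promoter windows of 250 bases before to 50 bases after a start site were held for 7 of the 10 genes in the RefSeq set (GRCm38.p6), in 8 windows because Vegfa had 2. The ETS motif AGGAAG, read on both strands, was searched because ETS factors bind promoters of many endothelial genes. It was present in 4 of the 7 genes, in windows of Flt1, Tie1, Ehd3 and Emcn, and in 35.4% of all 32851 promoter windows of the same length. The hypoxia response core ACGTG, on both strands, was present in the Ehd3 window, in 1 of the 2 Vegfa windows and in 19.6% of all windows. The Vegfa window with it was chr17:46025114-46025413, and the window at chr17:46032328-46032627 had none. The 3 windows with more than 1 ETS match are shown 5′ to 3′, with the matched letters in capitals. A match describes the letters and is no evidence of binding.
Flt1, chr5:147725962-147726261, minus strand: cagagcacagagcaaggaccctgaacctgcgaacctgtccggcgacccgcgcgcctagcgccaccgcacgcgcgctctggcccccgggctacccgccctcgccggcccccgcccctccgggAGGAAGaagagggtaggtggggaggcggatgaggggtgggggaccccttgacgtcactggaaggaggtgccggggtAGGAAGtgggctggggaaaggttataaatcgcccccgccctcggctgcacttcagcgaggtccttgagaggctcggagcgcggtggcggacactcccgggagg
Tie1, chr4:118489800-118490099, minus strand: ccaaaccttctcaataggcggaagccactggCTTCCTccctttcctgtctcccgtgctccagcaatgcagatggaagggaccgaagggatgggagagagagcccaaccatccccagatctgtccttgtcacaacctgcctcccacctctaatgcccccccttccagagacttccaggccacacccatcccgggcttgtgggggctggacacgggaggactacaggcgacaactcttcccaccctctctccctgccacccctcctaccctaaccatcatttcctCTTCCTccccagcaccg
Emcn, chr3:137340828-137341127, plus strand: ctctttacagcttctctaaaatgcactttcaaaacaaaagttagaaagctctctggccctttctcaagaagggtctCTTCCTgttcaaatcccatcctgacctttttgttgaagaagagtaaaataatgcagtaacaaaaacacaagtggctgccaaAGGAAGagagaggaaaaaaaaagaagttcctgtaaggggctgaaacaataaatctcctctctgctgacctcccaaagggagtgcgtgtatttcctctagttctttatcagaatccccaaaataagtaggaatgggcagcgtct

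Of the non-control spots, 69.1% and 68.6% were well above background on the 2-week and 4-week transplant arrays, against 60.9% to 65.7% on the kidney arrays. Slide 1 held the 2-week transplant with the E13.5 kidney, and slide 2 held the rest, so between slides the slide cannot be told apart from the tissue. Signal of Ddx3y (Y-linked) was missing in the P0 kidney and signal of Xist in the 8-week kidney, by the same background flag, so sex is another difference that cannot be told apart from the tissue there. With 1 array per group there is no replicate check and no p-value. A level is the log2 of the processed intensity over the 75th percentile of its array, so that 0 is that percentile. Levels are compared only within a probe. Feature Extraction's own error of a level was 0.144 to 0.151 log2 units, which gives 0.204 to 0.211 for the difference of 2 arrays and covers the spot but neither labelling nor animals. A difference is called at 2-fold, and the share of all genes compared that passed it is given beside the first count of each comparison.

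The growth factor receptors did not share 1 pattern. Kdr, the main signalling receptor for Vegfa, had levels of 2.17 and 2.37 in the 2-week and 4-week transplants, against 2.34 at E13.5, 2.34 at P0 and 2.87 in the 8-week kidney. The 8-week kidney was the only array that stood apart, and the gaps between the other 4 neighbours in the order were within the error of a difference. Flt1 had levels of 1.47 and 1.99 in the 2-week and 4-week transplants, against -0.26 at E13.5, 1.34 at P0 and 2.07 in the 8-week kidney. Flt1 was thus low in the E13.5 kidney only, and its levels in the 4-week transplant and the 8-week kidney differed by less than the error.

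Tek, the angiopoietin receptor, was at -1.19 and -1.65 in the 2-week and 4-week transplants, against -2.33 at E13.5, -1.39 at P0 and -1.86 in the 8-week kidney. Tie1 was at 0.099 and -0.47 in the 2-week and 4-week transplants, against -1.17, -0.043 and -1.32 in the E13.5, P0 and 8-week kidneys. Both receptors were highest in the 2-week transplant, with the P0 kidney within the error of it. For Tie1 the E13.5 and 8-week kidneys did not differ beyond the error.

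The junction genes were higher in both transplants than in any kidney, except that Pecam1 at 4 weeks had a log2 difference of -0.34 against E13.5 with normexp background correction. Pecam1 was at -0.83 and -1.18 in the 2-week and 4-week transplants, against -2.18 at E13.5, -1.45 at P0 and -2.30 in the 8-week kidney. Cdh5 was at 1.71 and 1.31 in the 2-week and 4-week transplants, against 0.29, 0.91 and -0.80 in the E13.5, P0 and 8-week kidneys. All 4 gaps between neighbours were above the error for Cdh5. For Pecam1 the E13.5 and 8-week kidneys were within it. Leukocytes and platelets also carry Pecam1, and the levels of genes of those cells are given with the venous genes.

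Among the capillary genes, Ehd3 was at 2.12 and 1.49 in the 2-week and 4-week transplants, against -0.32 at E13.5, 1.33 at P0 and 1.34 in the 8-week kidney. Plvap was at 2.47 and 2.19 in the 2-week and 4-week transplants, against 0.92, 2.42 and 2.58 in the E13.5, P0 and 8-week kidneys. Emcn was at 0.60 and 0.069 in the 2-week and 4-week transplants, against -1.09, 0.11 and -0.32 in the E13.5, P0 and 8-week kidneys. All 3 were lowest in the E13.5 kidney. Ehd3 and Emcn were highest in the 2-week transplant, by gaps above the error, while the levels of Plvap in the 8-week kidney, the 2-week transplant and the P0 kidney followed each other within it.

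Vegfa itself was at 1.45 and 1.96 in the 2-week and 4-week transplants, against 0.89 at E13.5, 1.38 at P0 and 2.06 in the 8-week kidney. The arrays ran in the same order as for Flt1. The 4-week transplant lay within the error of the 8-week kidney, and the 2-week transplant within the error of the P0 kidney.

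**Figure D1:**
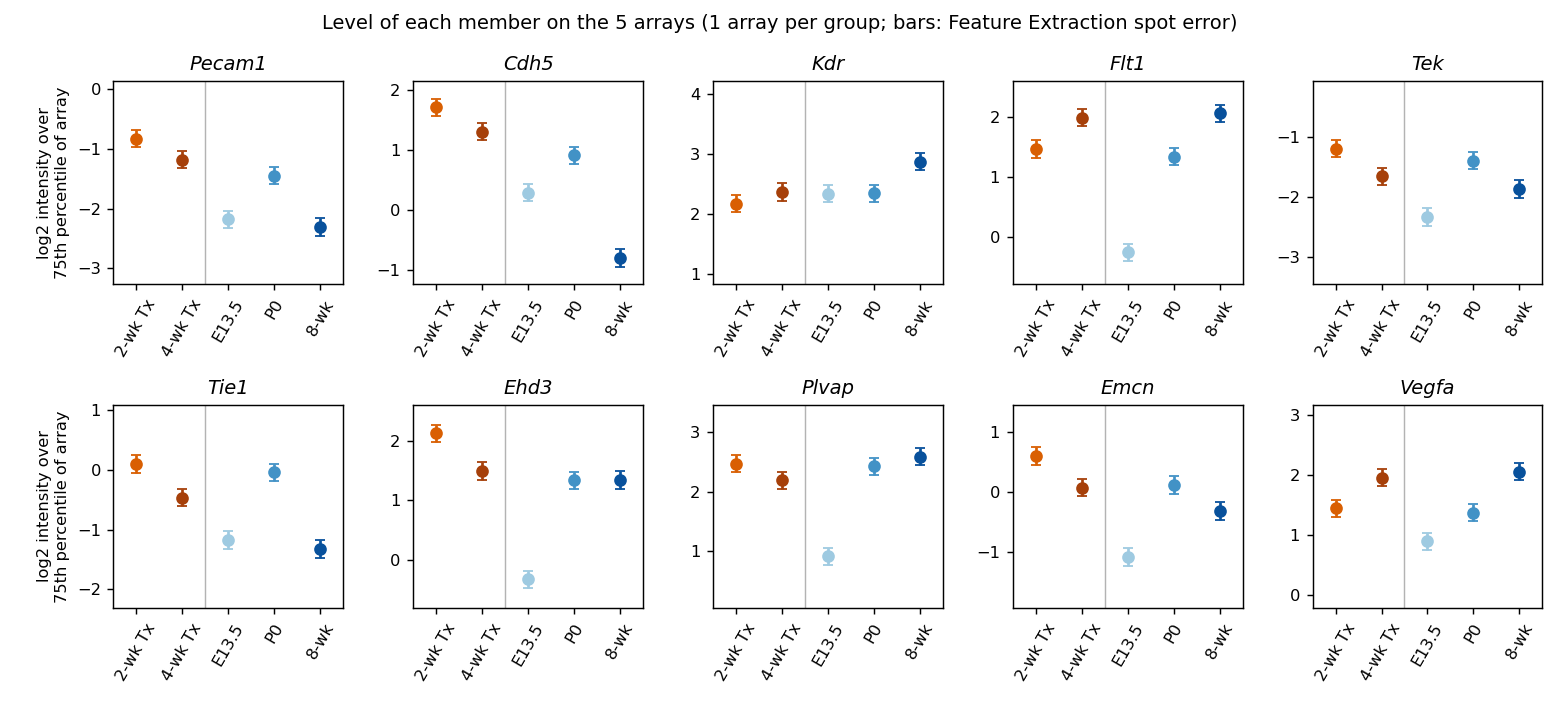
Levels of the 10 genes by array (y axis, log2 intensity over the 75th percentile of the array, every panel spanning the same range of log2 units; x axis, 2-week and 4-week transplant left of the line, E13.5, P0 and 8-week kidney right of it); points are single arrays and bars are Feature Extraction's error of the spot. Cdh5 is lowest in the 8-week kidney at -0.80 and highest in the 2-week transplant at 1.71, while Flt1 is low in the E13.5 kidney only, at -0.26.

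Over the 10 genes, 6 were highest in the 2-week transplant (Pecam1, Cdh5, Tek, Tie1, Ehd3 and Emcn) and 4 in the 8-week kidney (Kdr, Flt1, Plvap and Vegfa). The E13.5 kidney was lowest for 6 of them (Flt1, Tek, Ehd3, Plvap, Emcn and Vegfa), the 8-week kidney for Pecam1, Cdh5 and Tie1, and the 2-week transplant for Kdr. These places depend on the probe and on scaling. By their other probes (described with the probes), Kdr was highest at P0, Plvap in the 2-week transplant and Vegfa in the 4-week transplant. Flt1 was highest at P0 by A_55_P2166282 and in the 4-week transplant by A_52_P405145. With quantile normalization and in the authors' table (values not shifted by a percentile), Flt1 and Vegfa were highest in the 4-week transplant and Plvap in the 2-week transplant, and Kdr was lowest in the E13.5 kidney. In the authors' table Kdr was highest at P0, and none of the 10 genes was highest in the 8-week kidney. With normexp background correction Tek was highest in the E13.5 kidney. Pecam1, Cdh5, Tie1, Ehd3 and Emcn were highest in the 2-week transplant under all 6 alternatives.

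Between E13.5 and birth the vessel genes were higher. In the P0 kidney 5 of the 9 endothelial genes were at least 2-fold higher than in the E13.5 kidney and 0 lower, against 13.9% higher and 11.9% lower among the 17581 genes compared. The median of the 9 was 1.13 log2 units, beside -0.12 for all genes. Ehd3 was 3.15-fold, Flt1 3.03-fold, Plvap 2.83-fold, Emcn 2.30-fold and Tie1 2.19-fold higher. Tek (1.92-fold), Pecam1 (1.66-fold), Cdh5 (1.54-fold) and Vegfa (1.40-fold) had positive differences under 2-fold, and Kdr differed least. By its other probe Vegfa was 2.35-fold higher. With normexp background correction 3 of the 9 passed 2-fold and the median was 0.49. Under that correction 6.58% of all genes were higher and 33.9% lower, with a median of -0.33. The arrays lay on different slides.

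Between birth and 8 weeks, within slide 2, the endothelial genes went separate ways. In the 8-week kidney Cdh5 was 3.29-fold and Tie1 2.43-fold lower than in the P0 kidney, and 0 of the 9 were at least 2-fold higher, against 23.6% higher and 20.9% lower among all 17667 genes. With these shares of all genes, 2 lower and 0 higher among 9 genes do not set the members apart by count. The median of the 9 was -0.43, beside 0.068 for all genes. Pecam1 (-0.85), Tek (-0.47) and Emcn (-0.43) had negative log2 differences under 2-fold, and Flt1 (0.73), Kdr (0.53) and Plvap (0.16) positive ones. Vegfa had a log2 difference of 0.69. In the authors' table, whose values are not scaled between arrays, Pecam1 (-1.41) and Tek (-1.03) also passed 2-fold, and the number lower was 4. Of all genes, 14.4% were higher and 35.3% lower in that table. There the differences of Kdr (-0.21), Flt1 (-0.068) and Plvap (-0.41) were negative, so the sign of these 3 depends on scaling.
Against E13.5, on the other slide, 3 of the 9 genes were at least 2-fold higher in the 8-week kidney and 1 lower, with 27.3% of 17649 genes higher and 27.3% lower. These counts are near the shares of all genes and do not set the members apart. Flt1 was 5.01-fold, Plvap 3.17-fold and Ehd3 3.16-fold higher, and Cdh5 was 2.13-fold lower. Vegfa was 2.25-fold higher in the 8-week kidney than at E13.5, or 0.85 log2 units in the authors' table, under 2-fold.

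The 2-week transplant carried more endothelial signal than the E13.5 kidney of the same slide. At least 2-fold higher were 8 of the 9, and 0 were lower, against 21.4% higher and 20.3% lower among 18271 genes, and their median was 1.43, beside -0.11 for all genes. Ehd3 was 5.44-fold, Flt1 3.31-fold, Emcn 3.22-fold, Plvap 2.92-fold, Cdh5 2.69-fold and Pecam1 2.55-fold higher. Tie1 was 2.42-fold and Tek 2.20-fold higher, and Kdr had a log2 difference of -0.17. Vegfa, at 1.47-fold, did not pass 2-fold, though by its other probe it did, at 2.76-fold. With normexp background correction 4 of the 9 passed 2-fold, the median was 0.96 and Tek turned to -0.23. For all genes the shares were then 9.73% higher and 36.1% lower, with a median of -0.42. In the 4-week transplant, on the other slide, 6 of the 9 genes were at least 2-fold higher than at E13.5 and 0 lower, with 24.4% and 21.8% of 18328 genes. Flt1 was 4.76-fold and Ehd3 3.51-fold higher there, and Vegfa passed 2-fold at 2.09-fold. The 2 comparisons share the E13.5 array.

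Against the newborn kidney no member passed 2-fold by the probes given above. None of the 9 was 2-fold apart between the 2-week transplant and the P0 kidney, where 15.4% of 18328 genes were higher and 11.8% lower. The log2 differences ran from -0.17 (Kdr) to 0.80 (Cdh5), with 8 of 9 positive and a median of 0.20, beside -0.068 for all genes. None of the 9 passed 2-fold between the 4-week transplant and the P0 kidney of its own slide either, where 19.2% of 18453 genes were higher and 13.9% lower. Its differences ran from -0.43 (Tie1) to 0.65 (Flt1), with a median of 0.025. With the mean over the probes of each gene, Flt1 passed 2-fold in that comparison, with a log2 difference of 1.55. Vegfa had log2 differences of 0.073 in the 2-week and 0.59 in the 4-week transplant, over the P0 kidney. With these shares of all genes, few of any 9 genes would pass, so a count of 0 does not set the members apart. With 1 array per group, a difference under 2-fold does not show that vessel content was the same.

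Against the adult kidney the members split. In the 2-week transplant Cdh5 was 5.72-fold, Pecam1 2.77-fold and Tie1 2.68-fold higher than in the 8-week kidney, on the other slide, which makes 3 of 9 higher and 0 lower, against 21.7% and 22.5% of 18334 genes. In the 4-week transplant, within slide 2, Cdh5 was 4.32-fold and Pecam1 2.18-fold higher, 2 of 9, with 0 lower, against 22.2% and 18.6% of 18314 genes. Pecam1 was under 2-fold in that comparison with either normexp background correction and with quantile normalization. With these shares of all genes, 3 and 2 higher among 9 genes do not set the members apart by count. Kdr and Plvap had negative differences in both transplants, of -0.70 and -0.12 at 2 weeks and -0.51 and -0.40 at 4 weeks, as did Flt1 (-0.60 and -0.076) and Vegfa (-0.61 and -0.10). In the authors' table Plvap (0.46) and Flt1 (0.096) were positive at 2 weeks, and Flt1 (0.38) and Vegfa (0.36) at 4 weeks. The sign also turned with the probe, for Flt1 by A_55_P2166282 (0.18 at 2 weeks and 0.30 at 4 weeks), for Plvap by its other probe at 2 weeks (0.10) and for Vegfa by its other probe at 4 weeks (0.35). In the authors' table, where the median of all genes was 0.49 higher in the 2-week transplant, 6 of the 9 genes passed 2-fold there, with Tek, Ehd3 and Emcn added. The shares of all genes in that table were 35.5% higher and 13.8% lower.

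Between the graft times 0 of the 9 genes passed 2-fold, with 9.09% of 18497 genes higher and 5.68% lower in the 4-week transplant, and the arrays lay on different slides. The median of the 9 was -0.41, beside -0.00063 for all genes. Ehd3 (-0.63), Tie1 (-0.57), Emcn (-0.53), Tek (-0.46), Cdh5 (-0.41), Pecam1 (-0.35) and Plvap (-0.28) had negative log2 differences in the 4-week transplant. Flt1 (0.52) and Kdr (0.20) had positive ones, and so had Vegfa (0.51). Flt1 passed 2-fold with the mean over its probes (1.65), as did Vegfa by its other probe (2.10-fold). In the authors' table the median of all genes was -0.19 in this comparison.

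**Figure D2:**
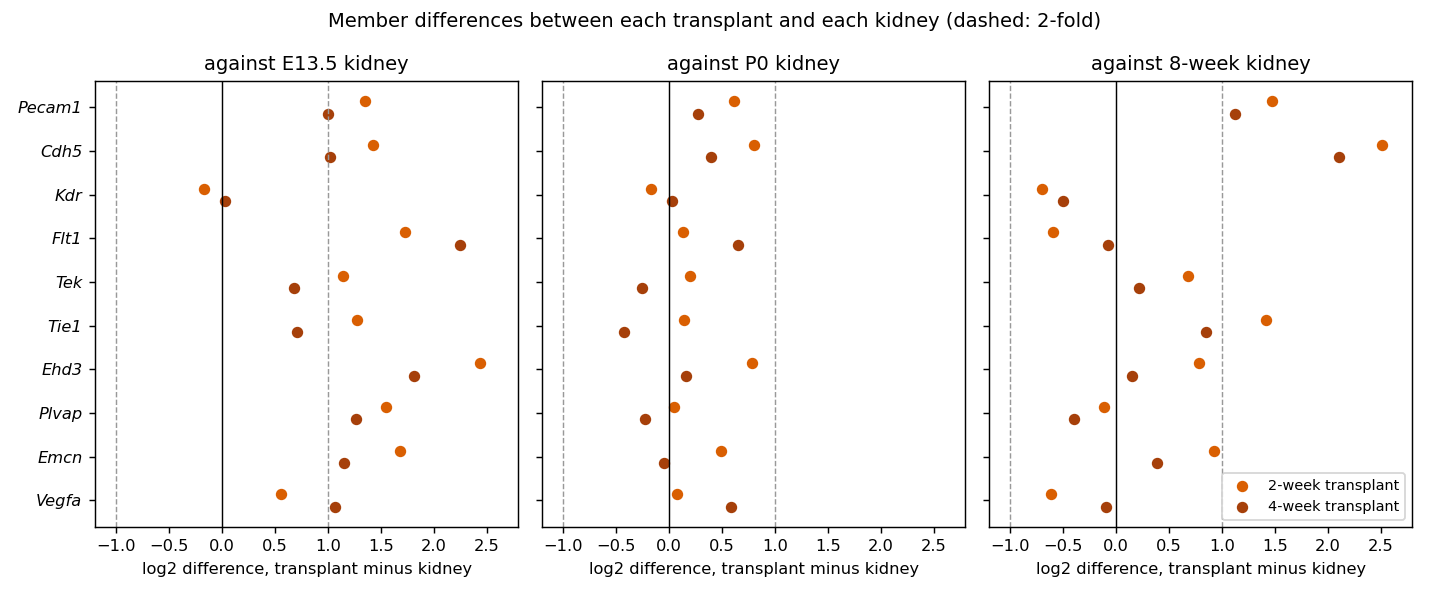
Log2 difference of each transplant minus each kidney (x axis) for the 10 genes (y axis), with the 2-week transplant above the 4-week transplant in each row and dashed lines at 2-fold. Most points lie past 2-fold against the E13.5 kidney, none against the P0 kidney, and against the 8-week kidney Cdh5 is furthest out at 2.52 and 2.11.

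A shift of a whole array cancels in the difference between genes on it, though corrections that depend on intensity do not. Set against the median difference of the 6 general endothelial genes (Pecam1, Cdh5, Kdr, Flt1, Tek and Tie1), Cdh5 stood 1.47 and 1.58 log2 units higher in the 2-week and 4-week transplants than in the 8-week kidney. Kdr stood at -1.75 and -1.04 in the same comparisons, Flt1 at -1.65 and -0.61, Plvap at -1.17 and -0.93, and Vegfa at -1.66 and -0.63. Of the other genes, Tek (-0.37 and -0.32), Ehd3 (-0.27 and -0.38) and Emcn (-0.13 and -0.14) were also below the 6-gene median, and Pecam1 (0.42 and 0.59) and Tie1 (0.37 and 0.32) above it. The 6 genes lie on both sides of their median by construction. Against the P0 kidney the same values lay within -0.57 and 0.63 for all 9 genes and within -0.10 and 0.44 for Vegfa.

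Kdr, Flt1, Plvap and Vegfa had more than 1 probe, and the probes did not always change together. The files give no probe sequences, so where each probe lies in its transcript was not analysed here. Of the 2 Kdr probes, A_55_P2094469 is the one given above, and A_51_P316553 was printed in 10 spots. In 1 of these spots the E13.5 array read 59802 units over a local background of 49162, against 23 to 31 on the other arrays. The scanner software marked it as an outlier, and it was left out. The other 9 spots had an SD of 0.035 to 0.048 log2 units on each array. Their level was 1.24 and 1.40 in the 2-week and 4-week transplants, against 0.91 at E13.5, 1.51 at P0 and 1.46 in the 8-week kidney. By this probe the E13.5 kidney was lowest and the 8-week kidney did not stand apart, so the direction between the transplants and the E13.5 kidney turned for the 2-week transplant, at 0.33 against -0.17.

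The 3 Flt1 probes name different transcripts. A_55_P2166282 was at -0.26 and -0.14 in the 2-week and 4-week transplants, against -1.34 at E13.5, -0.014 at P0 and -0.44 in the 8-week kidney. It was lowest at E13.5 like the probe given above, but its level in the 8-week kidney was below that at P0. A_52_P405145 behaved otherwise. It was well above background only in the 4-week transplant (level -3.21) and the E13.5 kidney (-4.17), and not in the 2-week transplant, the P0 kidney or the 8-week kidney. By this probe the 4-week transplant was at least 7.90-fold higher than the 2-week transplant and at least 7.01-fold higher than the P0 kidney. For a dim probe, the lowest value of a spot well above background on that array stands in for it unless the probe itself is brighter, which makes the fold a lower bound. This signal was low, at 163 intensity units in the 4-week transplant against 5977 for the brightest Flt1 probe.

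Both Plvap probes were lowest at E13.5, by at least 1.15 log2 units against each other array. The order of the others differed, since between the 2-week transplant and the 8-week kidney the difference was -0.12 by the probe given above and 0.10 by A_55_P2049186. Vegfa differed in size between its probes. A_52_P638895, named for NM_001025250, is given above. A_52_P249424, named for NM_001025257, was at -0.69 and 0.38 in the 2-week and 4-week transplants, against -2.15 at E13.5, -0.92 at P0 and 0.024 in the 8-week kidney. By that probe the 4-week transplant was the highest array, 5.78-fold above E13.5, 2.46-fold above P0, 1.28-fold above the 8-week kidney and 2.10-fold above the 2-week transplant. For the same comparisons the first probe gave log2 differences of 1.07, 0.59, -0.10 and 0.51.

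**Figure D3:**
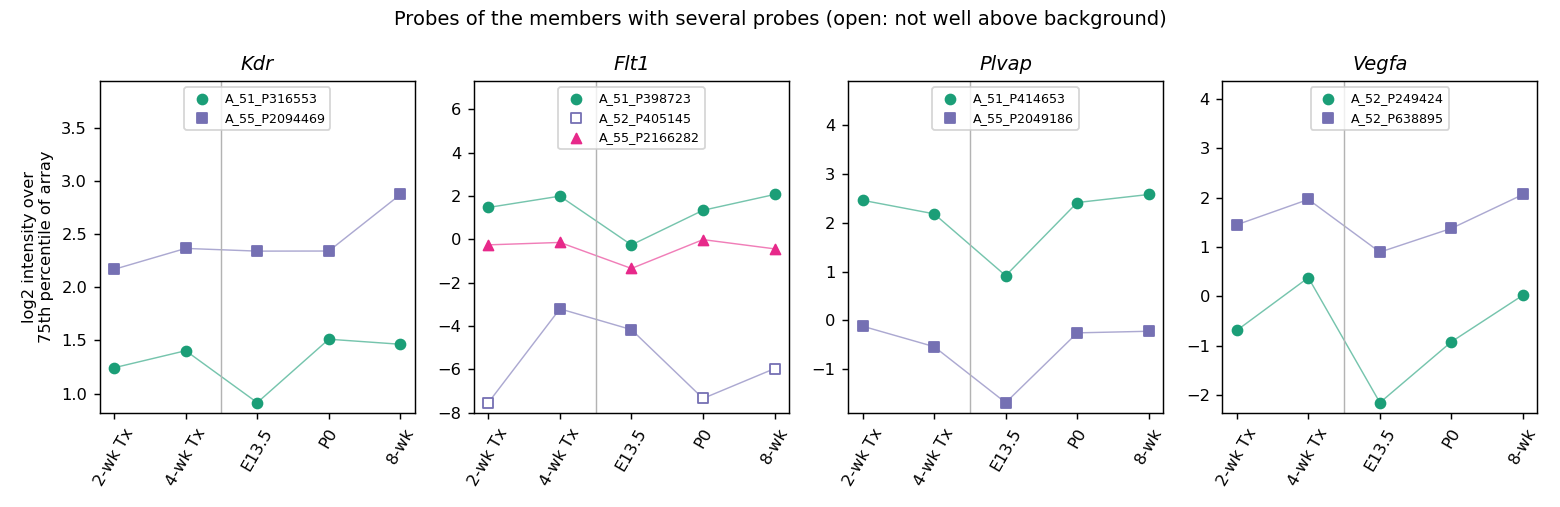
Levels (y axis, log2 intensity over the 75th percentile of the array) of each probe of Kdr, Flt1, Plvap and Vegfa on the 5 arrays (x axis, transplants left of the line, kidneys right of it); open symbols are not well above background, and the vertical range differs between panels. A_52_P405145 of Flt1 is filled only in the 4-week transplant and at E13.5, and both Vegfa probes are lowest at E13.5.

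Other endothelial genes gave a wider view. The counts of lists that follow are to be read against the same shares of all genes, which for the transplants were 15.4% higher and 11.8% lower (2 weeks) and 19.2% and 13.9% (4 weeks) against P0. Against the 8-week kidney they were 21.7% and 22.5% (2 weeks) and 22.2% and 18.6% (4 weeks), and against E13.5 they were 21.4% and 20.3% (2 weeks) and 24.4% and 21.8% (4 weeks). Of 22 further pan-endothelial genes, 15 exceeded 2-fold upward and 0 downward in the 2-week transplant over E13.5 (median 1.27), and 4 higher and 0 lower than at P0 (median 0.45). Against the 8-week kidney 17 were higher and 0 lower (median 1.23). In the 4-week transplant these counts were 9 higher and 0 lower (E13.5, median 0.74), 2 higher and 1 lower (P0, median -0.00086) and 10 higher and 0 lower (8-week kidney, median 0.94). Vwf (von Willebrand factor, stored in endothelial granules and platelets) differed most, at levels of 1.72 and 1.55 in the 2-week and 4-week transplants, against -2.43, -1.68 and -2.95 in the E13.5, P0 and 8-week kidneys. Vwf was 10.6-fold and 9.42-fold higher in the 2-week and 4-week transplants than at P0. Over the 8-week kidney, Cldn5, a tight junction protein, was 10.3-fold and 6.26-fold higher in the 2-week and 4-week transplants, and Cd34 7.15-fold and 5.19-fold.
In the 8-week kidney 12 of the 22 were lower and 1 higher than at P0 (median -1.14), among them Cldn5 (6.62-fold), Clec14a (4.56-fold) and Ecscr (4.42-fold). Ptprb, the phosphatase that acts on Tek, was the 1 gene higher, with a log2 difference of 1.05.

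The median of the venous list was past 2-fold in both transplants against each of the 3 kidneys. Of its 6 genes, the 2-week transplant had 4 at least 2-fold higher than at P0 and 0 lower (median 2.00), and 4 higher and 2 lower in the 4-week transplant (median 2.17). The 4 were Vwf, Selp, Ackr1 and Vcam1. Selp (P-selectin, which captures leukocytes) was well above background in both transplants and in no kidney, at least 4.55-fold and 5.69-fold higher in the 2-week and 4-week transplants than at P0. Ackr1, a chemokine receptor of venules and red cells, was at least 13.8-fold and 25.2-fold higher than at P0. Vcam1, an adhesion molecule that inflamed endothelium and other cells carry, had log2 differences of 3.59 and 3.62 over the 8-week kidney in the 2-week and 4-week transplants. Nr2f2 and Ephb4, which specify veins, were the 2 lower genes at 4 weeks, with levels of 1.93 and 0.88 in the 4-week transplant against 3.36 and 2.04 at P0. In the 2-week transplant their levels of 2.84 and 1.06 were also below P0, by less than 2-fold. Platelets also hold Selp and Vwf. Of the 6 leukocyte and platelet genes, 4 and 3 were at least 2-fold higher in the 2-week and 4-week transplants than at P0, and 0 lower. Their summed level was 10.5 and 6.00 times the array's 75th percentile in the 2-week and 4-week transplants, against 1.80, 3.61 and 0.67 in the E13.5, P0 and 8-week kidneys. The macrophage list summed to 69.2 and 47.4 in the 2-week and 4-week transplants, against 4.06, 7.23 and 15.7 in the kidneys, with all 8 genes well above background on every array. The part of these cells in the differences was not tested.

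Genes of other vessel types were less uniform. Of 8 arterial genes, the 2-week transplant had 5 higher and 1 lower than at E13.5, 3 and 1 against P0 and 6 and 0 against the 8-week kidney. The arterial secreted factor Sema3g was 20.2-fold higher than at E13.5. The Notch target Hey1 was 12.9-fold higher in the 2-week transplant than in the 8-week kidney and was 5.31-fold lower in the 4-week transplant than at P0. The glomerular endothelial list, which leaves out Ehd3, had 1 of 7 genes higher and 2 lower than at P0 in each transplant (medians 0.045 and -0.49), a share higher that is close to that of all genes. The higher gene was Pi16 (11.8-fold and 17.8-fold at 2 and 4 weeks), which fibroblasts also express. Gata5, a transcription factor of glomerular endothelium, was at 0.13 and -0.76 in the 2-week and 4-week transplants, against 0.19, 0.94 and 1.20 in the E13.5, P0 and 8-week kidneys. Sema5a was at 2.58 and 1.72 in the 2-week and 4-week transplants, against 1.09, 2.21 and 0.75 in the E13.5, P0 and 8-week kidneys. Plat, a plasminogen activator, was at 1.32 and 0.48 in the 2-week and 4-week transplants, against 0.63, 0.69 and -0.48 in the E13.5, P0 and 8-week kidneys. Sema5a and Plat were highest in the 2-week transplant, as Ehd3 was, and the other genes of the list were not. Gata5 was highest in the 8-week kidney, Tbx3 (2.86) and Pi16 (2.60) in the 4-week transplant and Smad6 (-0.23) in the E13.5 kidney. Sost was well above background at P0 only.
For continuous capillaries of fat and muscle, each transplant had 4 of 8 genes higher and 0 lower than at P0 (medians 0.49 and 1.27). Among them the fatty acid carrier Fabp4 was 5.03-fold, the glycerol channel Aqp7 7.03-fold and Rgcc 8.68-fold higher in the 4-week transplant, and the fatty acid transporter Cd36 was 12.5-fold and 37.6-fold higher at 2 and 4 weeks. Fat cells express Fabp4, Cd36 and Aqp7. All 8 adipocyte genes were well above background in both transplants, with a summed level of 226 and 566 at 2 and 4 weeks, against 1.76, 32.8 and 4.35 in the E13.5, P0 and 8-week kidneys, where Adipoq, Cfd and Ucp1 were not well above background. In the list of peritubular and fenestrated capillaries, which also holds Cd36, each transplant had 2 of 6 genes higher and 0 lower than at P0 (medians 0.77 and 0.42). The part of fat vessels in the endothelial differences was not tested.

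Lymphatic genes were sparse. Over P0, 2 of 5 compared were higher and 0 lower in the 2-week transplant, and 1 of 6 higher and 0 lower in the 4-week transplant. Mmrn1, a secreted protein of lymphatic vessels and platelets, was 7.26-fold higher in the 2-week transplant than at P0. Its level was -1.31 and -2.56 in the 2-week and 4-week transplants, against -1.48 at E13.5 and -4.17 at P0. The 2-week level was thus near that at E13.5. In the 8-week kidney Mmrn1 was not well above background. Pdpn was the other gene higher in the 2-week transplant than at P0, at 2.49-fold. Prox1, the factor that specifies lymphatic endothelium, was well above background in the 4-week transplant only, at -5.64. Lyve1, carried by lymphatic vessels and by some macrophages, was at -1.60 and -2.13 in the 2-week and 4-week transplants, against -2.80 at E13.5 and -2.38 at P0, and was not well above background in the 8-week kidney. Against the 8-week kidney it was at least 13.8-fold and 9.54-fold higher. Flt4, the receptor of lymphatic endothelium for Vegfc, was between -5.24 and -4.60 on all 5 arrays.

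Mural cells wrap the vessel. Of 11 pericyte and smooth muscle genes, 9 and 10 were at least 2-fold higher in the 2-week and 4-week transplants than in the 8-week kidney and 0 lower (medians 2.63 and 2.35), and 3 and 2 were higher than at P0 (medians 0.030 and 0.24). The pericyte gene Rgs5 was 9.70-fold and 6.99-fold higher than in the 8-week kidney, and the contractile gene Cnn1 64.6-fold and 86.4-fold. In the 8-week kidney 10 of the 11 were lower than at P0 and 0 higher, with Acta2 (smooth muscle actin) 31.3-fold lower. Smooth muscle outside vessels and, for Acta2 and Tagln, myofibroblasts express such genes too.

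**Figure D4:**
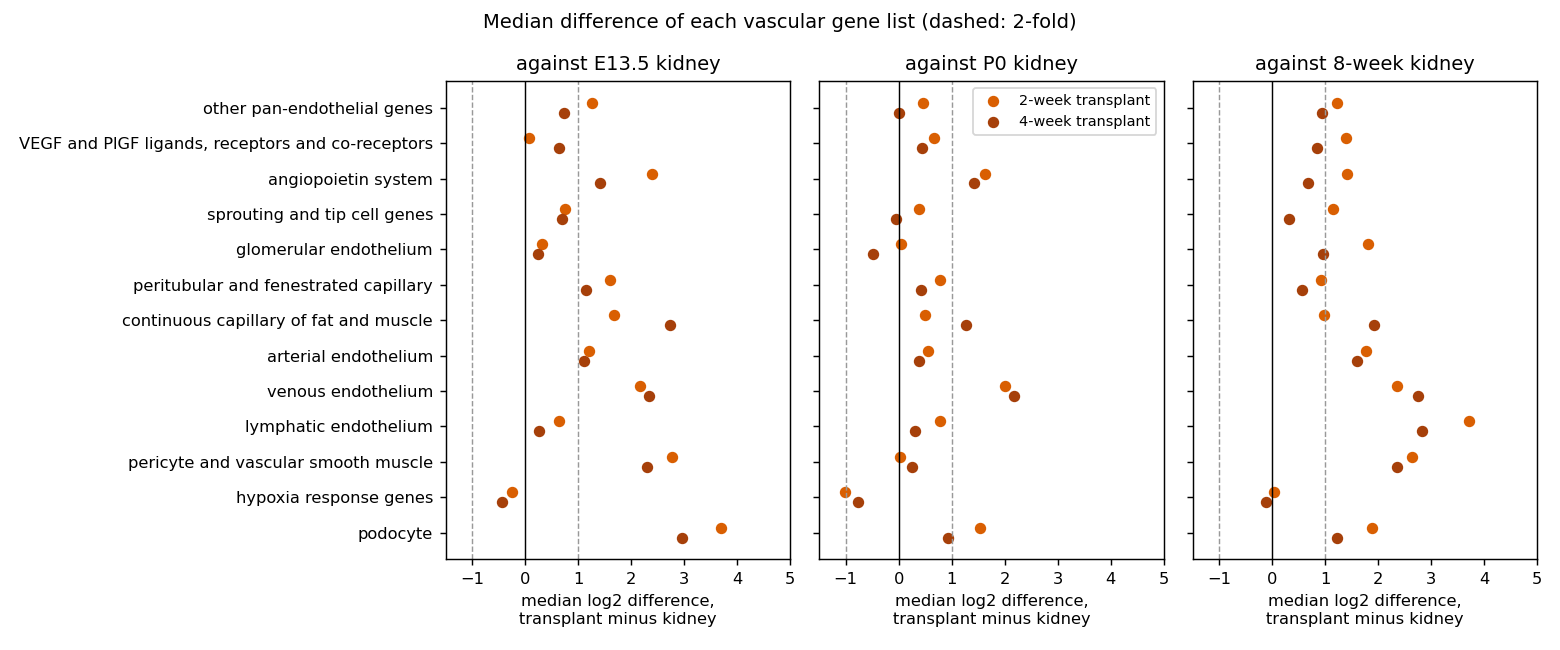
Median log2 difference of each gene list (rows) between the 2-week or 4-week transplant and each kidney (x axis, transplant minus kidney, lower bounds included), with dashed lines at 2-fold. The median of the venous list lies past 2-fold against all 3 kidneys, though not all its genes do. Further pan-endothelial genes have medians of 0.45 and -0.00086 against P0.

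The ligand and receptor system around the members was read next. Vegfb, a ligand of Flt1, was at 0.014 and 1.35 in the 2-week and 4-week transplants, against 0.38, 0.69 and 1.12 in the E13.5, P0 and 8-week kidneys. Vegfd, which binds Flt4, was 10.5-fold and 8.58-fold higher in the 2-week and 4-week transplants than in the 8-week kidney, where it was 5.88-fold lower than at P0. Pgf (placental growth factor, a ligand of Flt1) was 4.52-fold lower at P0 than at E13.5. The list of the angiopoietin system holds Angpt1, Angpt2, Angpt4, Svep1 and Ptprb, which is also in the pan-endothelial list. Of these 5 genes, each transplant had 4 higher and 0 lower than at E13.5 (medians 2.39 and 1.41). Against P0 each had 3 higher and 0 lower (medians 1.63 and 1.43). The 3 were Angpt4, Ptprb and Svep1, of which only Angpt4 is an angiopoietin. Angpt2, which endothelial cells release and which can oppose Angpt1 at Tek, was 5.26-fold higher in the 2-week transplant than at E13.5. Its level was 1.11 and -0.060 in the 2-week and 4-week transplants, against -1.29, 0.49 and -0.30 in the E13.5, P0 and 8-week kidneys.
Of 10 sprouting and tip cell genes, the 2-week transplant had 6 higher and 1 lower than in the 8-week kidney, and the 4-week transplant 4 higher and 1 lower. Against P0 each transplant had 1 higher and 1 lower. The 1 lower than in the 8-week kidney was Esm1, an endothelial proteoglycan that Vegfa induces, at 0.55 and 0.59 in the 2-week and 4-week transplants, against -0.090, 0.65 and 3.02 in the E13.5, P0 and 8-week kidneys. Esm1 was 5.51-fold and 5.37-fold lower in the 2-week and 4-week transplants than in the 8-week kidney. The apelin receptor gene Aplnr was 8.67-fold and 5.08-fold higher than in that kidney.

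Lists of hypoxia response and of cell types known to make Vegfa are given beside it. Of 14 hypoxia response genes, the 2-week transplant had 1 higher and 7 lower than at P0 (median -1.01), and the 4-week transplant 1 higher and 6 lower (median -0.76). Ankrd37 was 7.83-fold and 9.37-fold lower and Egln3, an oxygen sensor, 4.14-fold and 6.16-fold lower. The 1 higher by 2-fold was Epas1 (HIF-2α, which endothelial cells express), at 4.63 and 4.91 in the 2-week and 4-week transplants, against 1.07, 3.26 and 4.49 in the E13.5, P0 and 8-week kidneys. Adm, a vasodilator peptide, had log2 differences of 0.94 and 0.99 over P0, just under 2-fold. Over the same comparisons Vegfa had log2 differences of 0.073 and 0.59. Ankrd37 and Egln3 were low in the 8-week kidney too, at -3.43 and -1.85, which was 8.36-fold and 4.05-fold below P0. The median level of the hypoxia list was 0.73 and 0.58 in the 2-week and 4-week transplants. In the E13.5, P0 and 8-week kidneys it was -0.11, 1.34 and 1.34, so the direction depended on the kidney taken as reference. Of 10 podocyte genes, the 2-week transplant had 8 higher and 1 lower than at P0 (median 1.54), and 5 higher and 1 lower in the 4-week transplant (median 0.94). Between the graft times the podocyte median was -0.73, while Vegfa was at 0.51. All 7 adrenal cortex genes were well above background in the 4-week transplant, where their summed level was 207, against 0.30 in the 2-week transplant and 0.37 to 0.59 in the kidneys. The adrenal cortex has fenestrated vessels and makes Vegfa, and its part in the 4-week values was not tested. The tubule list summed to 31.0 and 40.7 in the 2-week and 4-week transplants, against 1.20, 86.7 and 889 in the E13.5, P0 and 8-week kidneys, with 4 of 8 genes not well above background at E13.5. A sum follows its brightest genes, here Aqp1 at 4.14 and 4.79 in the 2-week and 4-week transplants. The median level of the tubule list went the other way, at 0.59 in the 2-week and -1.59 in the 4-week transplant.

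The genes with the most similar course were found over the 5 arrays among those well above background on all of them, by the root mean square difference of levels centred on their own mean. For the mean of the 6 general endothelial genes they were Lrch1 (0.049 log2 units), Dap (0.056), Robo4 (0.074), Nudt16 (0.090) and Cntf (0.11). For Ehd3 they were Afap1l2 (0.11), Igfbp3 (0.15), Rcan2 (0.18) and Adcy1 (0.19). For Plvap they were Fam20c (0.092), F8 (0.10), Atp6ap2 (0.12), Nedd9 (0.14) and Ctsl (0.15). Gimap6 (0.088), 1810010H24Rik (0.10), Plekha2 (0.11), Clec1a (0.11) and Dll4 (0.14) lay nearest to Emcn. Ptpn21 (0.062), Coq8b (0.072), Apol7b (0.082), Arhgef12 (0.10) and Churc1 (0.10) lay nearest to Vegfa. Robo4, Gimap6, Clec1a and Dll4 are known from endothelium. With 5 points, such likeness is a description only.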

How the data were processed

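RNA of 5 tissues, 1 array each, was measured on one-colour Agilent mouse arrays, and groups were taken from the sample titles. Per the file headers, the deposited intensity of each spot had its background subtracted and a spatial trend removed in Agilent Feature Extraction 10.7.3.1, and the deposited flags (score 0 or 1) mark background, saturation and outliers. The authors' deposited gene table holds log2 values centred per row. Of its values, 99.7% lay within 0.01 of the unshifted log2 intensity, averaged over a gene's probes on the linear scale, and 18.2% after a 75th percentile shift, which its title line names, so it carries no shift.

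Levels were log2 intensities after subtracting, per array, log2 of the 75th percentile of the 43020 non-control spots. None of these was saturated, and 447 with an outlier mark on at least 1 array were dropped. Repeat spots were averaged per probe. A gene was read from its probe of highest mean level, with names from gene identifiers of the authors' table matched to RefSeq (GRCm38.p6). A gene had to be well above background on at least 1 array of a comparison, and where it was dim on the other, the lowest single spot well above background there set the bound.

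The 10 members and the 18 lists (158 entries, 157 matched) were chosen with earlier results of these data known. The rule for named genes was all members, list genes at least 4-fold apart (at most 5 per list and direction) or against their list, and the 5 most similar genes of each pattern, of which 1 is not reported here. Not every list gene that met it is named. Gata5, Sema5a, Plat, Tbx3, Smad6, Sost, Flt4, Prox1, Pdpn, Vegfb, Nr2f2, Ephb4, Adm and Rgs5 were chosen after their values were seen. This holds whether or not the rule covers them. The comparison step was tested on simulated data. Python 3.11.15, R 4.3.3 and limma 3.58.1 were used. Alternatives were 2 normexp background corrections (offset 50), quantile normalization, the authors' table, a median shift, the mean over probes, a stricter background filter and other fold thresholds. No p-value was computed.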

Additional observations from a re-analysis of the deposited data

How the results depend on the processing

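Of the alternative values of the endothelial medians and of Vegfa, 131 stayed on their side of 2-fold and 9 did not. The stricter background filter gave 20 of the 131. It could not change them, because all 10 members were well above background on every array. Small differences changed sign: the median of the 4-week transplant against P0 in the authors' table (-0.21, and also negative with the mean over probes), and Vegfa in the 4-week transplant against the 8-week kidney with quantile normalization (0.20), the authors' table (0.36) and the mean over probes (0.13). Normexp correction put the endothelial median under 2-fold against E13.5 for the P0 kidney (0.49), the 2-week transplant (0.96) and the 4-week transplant (0.52). That correction estimated a mean background of -992 for E13.5 and of 20.7 to 27.5 for the other arrays. The 4-week median against E13.5 was also under 2-fold with background from the 153 negative controls (0.98) and in the authors' table (0.91). The mean over probes gave 0.94 for that median at P0 against E13.5, and 1.01 for Vegfa in the 2-week transplant against E13.5, now past 2-fold. In the authors' table the median of the 2-week transplant against the 8-week kidney passed 2-fold (1.33), and Vegfa in the 8-week kidney against E13.5 did not (0.85). Of the single members, Flt1 turned with the mean over probes for P0 (-0.082) and the 2-week transplant (-0.18) against E13.5, since the dim probe enters. Tek in the 2-week transplant (-0.23) and Pecam1 in the 4-week transplant (-0.34) turned against E13.5 with normexp correction; for these the cause was not tested. With that correction 3 in place of 5 endothelial genes were higher at P0, and 4 in place of 8 in the 2-week transplant, against E13.5. The shares of all genes higher under it were 6.58% (P0) and 9.73% (2-week transplant), and the shares lower 33.9% and 36.1%. At 4-fold the counts against E13.5 were 0 (P0), 1 (8-week kidney), 1 (2-week transplant) and 1 (4-week transplant), and at 1.5-fold 8 were higher at P0, and 3 in the 2-week transplant against P0. No paired analysis was possible because each group has 1 array. The number of arrays limits the precision, and no model could include the slide.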
